A study of Mus musculus with 4 samples.

Results

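Malat1, Neat1, Gas5, Snhg1, Snhg3 and Snhg12 are long noncoding RNAs that act in, or are made and processed in, the nucleus. They were chosen by symbol, and all 6 of the 6 symbols were found among the 22222 genes of the deposited table. The RNA came from keratoacanthomas, tumours of the skin, raised in mice by 20 weeks of the carcinogenic hydrocarbon DMBA. Cells positive for Tomato and for P-cadherin were sorted from 2 mice 1 week after DMBA had been stopped and from 2 other mice still on DMBA. All 4 mice thus had the same 20 weeks of DMBA. The strain, the age of the mice and the allele that carries Tomato were not given in the sources used here. Each library is 1 mouse, so p-values rest on the spread between 2 mice per group, which limma draws towards that of genes of similar level. Ribosomal RNA was removed from total RNA, a preparation that also keeps RNAs without a poly(A) tail, such as Malat1.

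Malat1 is among the most abundant nuclear RNAs of mammalian cells and gathers in nuclear speckles, bodies rich in splicing factors. Neat1 is the scaffold of paraspeckles, bodies that assemble around its long isoform. Gas5, Snhg1, Snhg3 and Snhg12 carry small nucleolar RNAs (snoRNAs) in their introns. These guide the chemical modification or cleavage of ribosomal RNA. Once the snoRNAs are cut out, the spliced host RNA has little coding potential, and for Gas5 and several other hosts it is known to be destroyed by nonsense-mediated decay when ribosomes engage it. Several hosts, Gas5 first among them, belong to the genes whose transcripts begin with a run of pyrimidines (terminal oligopyrimidine genes), a class that also holds the ribosomal protein genes.

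The terminal oligopyrimidine class is defined at the first transcribed bases. The sequences around the annotated starts are therefore shown for the 5 genes that have one in the RefSeq promoter table (build GRCm38.p6). Each runs from 50 bases before the start to 50 bases from it on, 5′ to 3′ on the gene's own strand. Capitals mark the longest run of C and T that lies within 10 bases of the annotated start.
Snhg1, chr19:8723437-8723536, plus strand: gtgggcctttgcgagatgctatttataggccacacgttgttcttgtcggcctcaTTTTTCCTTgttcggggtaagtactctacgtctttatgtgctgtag
Snhg12, chr4:132308628-132308727, plus strand: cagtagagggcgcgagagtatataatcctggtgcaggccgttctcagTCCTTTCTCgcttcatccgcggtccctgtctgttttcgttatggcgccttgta
Gas5, inner start, chr1:161035116-161035215, plus strand: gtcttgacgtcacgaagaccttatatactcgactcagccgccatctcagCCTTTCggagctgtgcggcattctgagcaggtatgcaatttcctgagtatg
Gas5, outer start, chr1:161034551-161034650, plus strand: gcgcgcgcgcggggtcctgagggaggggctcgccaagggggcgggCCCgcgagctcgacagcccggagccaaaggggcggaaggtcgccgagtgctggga
Snhg3, chr4:132353637-132353736, minus strand: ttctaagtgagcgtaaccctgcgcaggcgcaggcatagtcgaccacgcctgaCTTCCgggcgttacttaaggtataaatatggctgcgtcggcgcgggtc
Malat1, chr19:5802623-5802722, minus strand: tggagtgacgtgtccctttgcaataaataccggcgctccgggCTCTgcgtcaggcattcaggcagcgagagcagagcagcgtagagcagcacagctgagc
The run was 9 bases long in Snhg1, where it began 4 bases after the annotated first base, and 9 bases in Snhg12, where it began 3 bases before it. Of 32851 RefSeq promoter windows, 9.55% held a run at least as long at the same place. The inner start of Gas5 had a run of 6 bases beginning 1 base before the start, and 29.2% of windows held a run at least as long. The outer start of Gas5 had 3 bases (82.9% of windows), Snhg3 had 5 (44.9%) and Malat1 had 4 (63.9%). A run of 6 or more was thus present at 3 of the 6 starts. The full windows of 300 bases were also searched on both strands for 4 short motifs. TGACGTCA, the cyclic AMP response element, was in the window of the inner Gas5 start and in 1.79% of all windows. Its 5-base part TGACG, which lies within TGACGTCA, was in 3 of the 6 windows and 20.8% of all. The E-box CACGTG was in 0 of the 6 and 7.15% of all, and TATA was in 4 of the 6 and 36.7% of all. These matches describe letters only.

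The 4 libraries differed widely in the RNA of cell type markers, and the members are read against that. The libraries had 5551937 and 7662159 reads at 1 week and 9678682 and 5635945 on DMBA. The deposited level is a read count relative to a scaled library size and is called scaled CPM here. The 12 epithelial markers, all measured, summed to 4661 and 4142 scaled CPM at 1 week, against 56338 and 583 on DMBA, in the order replicate 1, replicate 2, which is kept throughout. The 9 fibroblast markers summed to 47943 and 50769.6 at 1 week and 168 and 42415 on DMBA. The 10 leukocyte markers summed to 6342 and 11132 at 1 week and 23.6 and 14481 on DMBA, and the 6 endothelial markers to 491 and 997 at 1 week and 5.11 and 155 on DMBA. Every marker had reads in every library apart from the leukocyte gene Fcer1g, at 0 in on-DMBA replicate 1. Cdh3, which encodes the P-cadherin used for the sort, was at 42.8 and 30.4 scaled CPM at 1 week and 325 and 3.23 on DMBA. Krt14, a basal keratin, was at 2644 and 1944 at 1 week and 26654 and 202 on DMBA. The fibroblast collagen Col3a1 was at 20761 and 27662 at 1 week and 68.5 and 20658 on DMBA. The leukocyte gene Ptprc was at 393 and 850.2 at 1 week and 2.49 and 632 on DMBA, and the endothelial gene Pecam1 was at 209 and 402 at 1 week and 2.61 and 47.2 on DMBA. On-DMBA replicate 1 therefore stands apart, with the highest epithelial sum and the lowest sums of the other 3 lists, and in the other 3 libraries the fibroblast sum exceeds the epithelial one, although all 4 libraries carry the cell type label Epi. The part of these marker differences in the results below was not tested. In a bulk sample, fewer cells of a type and less RNA per cell cannot be told apart.

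The mean levels of Malat1 differed by less than the SD of its 1-week libraries, and its share of the library varied least of the 6. It was at 5387 and 7219 scaled CPM at 1 week, against 7210.1 and 6877 on DMBA. The groups overlap, and 1-week replicate 1 is the only library that sits below the other 3. Its counting interval of 5329.9 to 5444 (95%, exact Poisson) does not meet those of the other libraries. Malat1 took 0.621% and 0.661% of all reads at 1 week and 0.627% and 0.68% on DMBA. The highest level was 1.34 times the lowest, while on-DMBA replicate 1 had 96.6 times the epithelial marker sum of on-DMBA replicate 2. The mean was 6303 ± 1296 at 1 week and 7043 ± 236 on DMBA (SD, n = 2 each), a log2 difference of -0.18 (SE 1.63, 95% interval -4.30 to 3.95, limma adjusted p = 1.00). The fit draws the variance of a gene towards that of genes of similar level, and without this trend the interval was -1.62 to 1.27.

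Neat1 was highest in on-DMBA replicate 1, and its level in the other 3 libraries lay closer together. It was at 338 and 296 scaled CPM at 1 week, against 562 and 251 on DMBA. The 1-week libraries lie between the on-DMBA libraries, so the groups overlap. The mean was 317 ± 29.6 at 1 week and 407 ± 219.5 on DMBA (SD, n = 2 each), a log2 difference of -0.25 (SE 0.67, 95% interval -1.94 to 1.44, limma adjusted p = 1.00). Neat1 has a short and a long isoform that share their 5′ part, and the single value per gene does not separate them. Set against Malat1 in the same library, there were 62.7 and 41.0 Neat1 reads per 1000 Malat1 reads at 1 week and 77.9 and 36.6 on DMBA. This ratio does not depend on how the library was scaled, and its groups overlap as well.

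All 4 snoRNA hosts were highest in on-DMBA replicate 1, as were Neat1 and 41.7% of all genes tested. On-DMBA replicate 2 was the lowest library for Gas5 and Snhg1 but not for Snhg3 and Snhg12. Gas5, first found as a transcript that accumulates in growth-arrested mouse fibroblasts, was at 49.4 and 64.0 scaled CPM at 1 week, against 189.8 and 40.9 on DMBA. On-DMBA replicate 1 was 4.64 times on-DMBA replicate 2 and 3.35 times the 1-week mean. Snhg1 was at 15.8 and 26.1 at 1 week, against 67.0 and 12.4 on DMBA, and on-DMBA replicate 1 was 5.41 times replicate 2. For both genes the 1-week libraries lie between the on-DMBA libraries. The log2 difference was -0.65 for Gas5 (SE 0.83, 95% interval -2.76 to 1.46, limma adjusted p = 1.00). It was -0.50 for Snhg1 (SE 0.92, 95% interval -2.85 to 1.84, limma adjusted p = 1.00).

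Snhg3 and Snhg12 were lower at 1 week without overlap of the groups, and neither passed the test. Snhg3, which hosts the H/ACA snoRNAs of the U17 type, was at 3.91 and 4.28 scaled CPM at 1 week, against 18.3 and 5.20 on DMBA. Snhg12 was at 7.03 and 6.85 at 1 week, against 28.9 and 7.72 on DMBA. The separation from on-DMBA replicate 2 is within counting error for both. Snhg3 had 25 and 30 reads at 1 week and 154 and 29 on DMBA, and Snhg12 had 45 and 48 reads at 1 week and 243 and 43 on DMBA. The counting interval of Snhg3 was 2.53 to 5.77 and 2.89 to 6.11 scaled CPM at 1 week, and 3.49 to 7.47 in on-DMBA replicate 2. The log2 difference was -1.17 for Snhg3 (SE 0.83, 95% interval -3.28 to 0.94, limma adjusted p = 1.00) and -1.06 for Snhg12 (SE 0.82, 95% interval -3.15 to 1.03, limma adjusted p = 1.00). Of all 15419 genes tested, 9.14% were lower at 1 week without overlap, against these 2 of the 6 members.

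**Figure D1:**
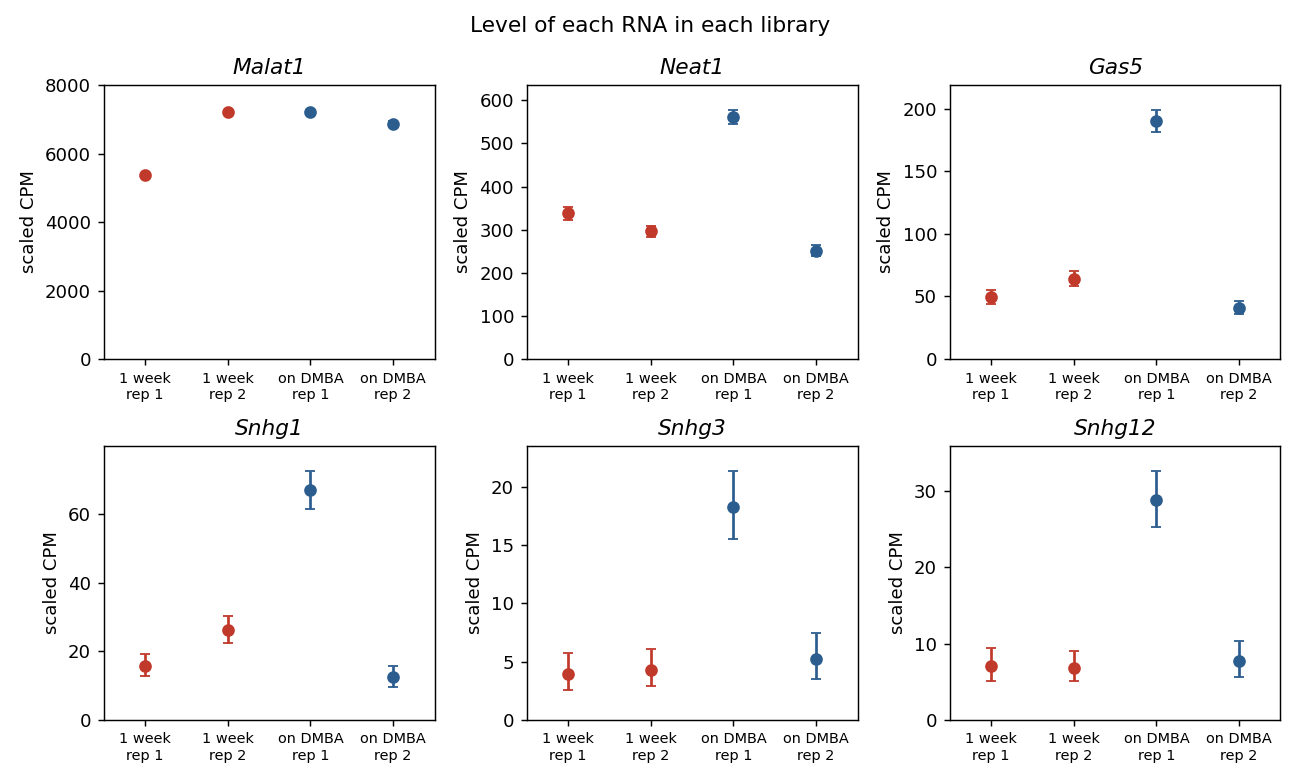
Level of each of the 6 RNAs in scaled CPM (linear axis from 0) in the 1-week libraries (red) and on-DMBA libraries (blue). Points are single libraries (1 mouse each) and bars are 95% exact Poisson intervals, which cover counting error only. Malat1 lies between 5387 and 7219 in all 4 libraries, and the other 5 RNAs are highest in on-DMBA replicate 1.

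With all 4 libraries limma called 0 of the 6 members, and 0 of the 15419 genes tested (0.0% higher and 0.0% lower at 1 week). Without adjustment, at p under 0.05, it found 352 genes higher (2.28%) and 30 lower (0.195%), with 0 of the 6 members among them. On whole reads recovered from the deposited values, edgeR called 0 of the 6 members and 0 genes in all. Its p before adjustment was under 0.05 for 229 genes that were higher (1.49%) and 42 that were lower (0.272%). In DESeq2 the calls were 16 genes higher (0.104%) and 3 lower (0.0195%), and 0 of the 6 members. The members' smallest unadjusted p was 0.215 in limma, 0.137 in edgeR and 0.12 in DESeq2, each for Snhg3. With 2 mice in each group, 0.333 is the smallest two-sided p that an exact permutation test allows.

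The snoRNA hosts passed the test when the less epithelial on-DMBA library was left out, and in none of the other 3 fits that leave out 1 library. The sign for Neat1, Gas5 and Snhg1 turned with the on-DMBA library kept. Without on-DMBA replicate 2, limma called 4 of the 6 members lower at 1 week, where 1549 genes (10%) were called lower. The log2 difference was then -1.75 for Gas5 (adjusted p = 0.0105), -1.70 for Snhg1 (adjusted p = 0.00863), -2.03 for Snhg3 (adjusted p = 0.00694) and -1.98 for Snhg12 (adjusted p = 0.00298). Malat1 at -0.21 and Neat1 at -0.83 were not called (adjusted p = 0.922 and 0.406). In that fit 11 of the 12 epithelial markers were also called lower, and all 9 fibroblast, 10 leukocyte and 6 endothelial markers were called higher, where 2212 genes (14.3%) were. Without on-DMBA replicate 1, limma called 0 of the 6, where 2.35% of genes were called higher and 0.999% lower. The log2 difference was 0.33 for Neat1, 0.45 for Gas5, 0.69 for Snhg1, -0.31 for Snhg3, -0.14 for Snhg12 and -0.14 for Malat1. The widest of these intervals was that of Malat1, -1.72 to 1.44. In this fit 11 of the 12 epithelial, 4 of the 6 endothelial and 1 of the 9 fibroblast markers were called higher, and 0 of the 10 leukocyte markers. Each of the 2 fits assumes that the lone on-DMBA library varies as the 1-week libraries do.

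**Figure D2:**
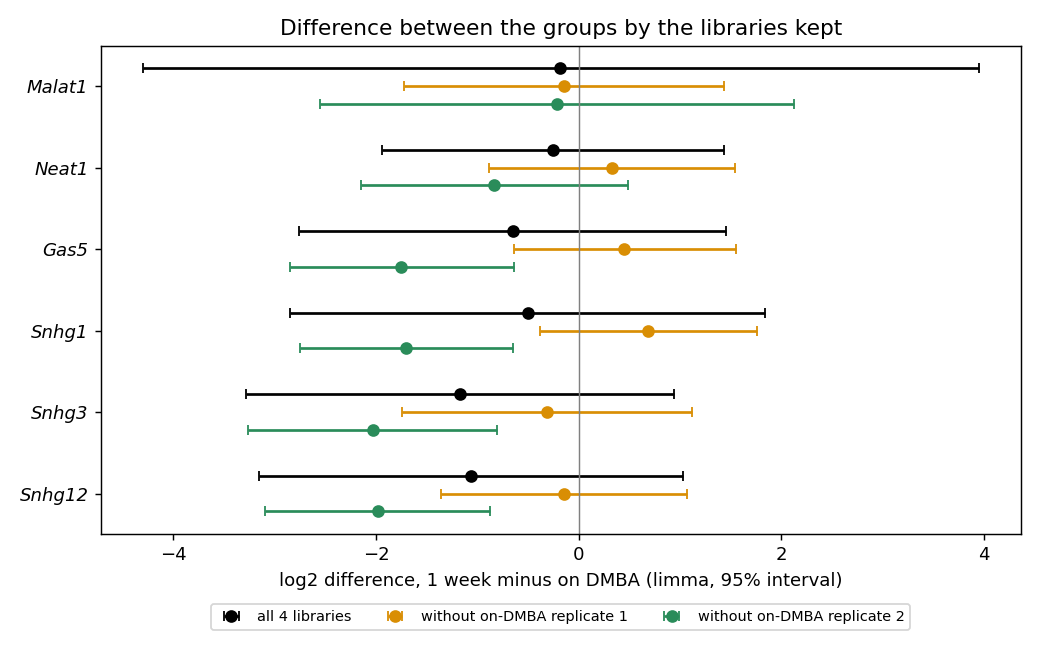
Log2 difference, 1 week minus on DMBA, of each RNA with its 95% interval from limma, for all 4 libraries (black), without on-DMBA replicate 1 (orange) and without on-DMBA replicate 2 (green). The 4 snoRNA hosts lie clear of 0 in the green fit alone, and Malat1 stays between -0.21 and -0.14 in all 3.

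Relative to Malat1 in the same library, which removes the scaling of the libraries, the hosts were again highest in on-DMBA replicate 1. The 4 hosts together had 14.1 and 14.0 reads per 1000 Malat1 reads at 1 week, against 42.1 and 9.63 on DMBA. The 1-week libraries agree closely and lie between the 2 on-DMBA libraries. Gas5 alone had 9.17 and 8.87 at 1 week and 26.3 and 5.95 on DMBA, and Snhg1 had 2.93 and 3.62 at 1 week and 9.29 and 1.8 on DMBA. Snhg3 had 0.725 and 0.593 at 1 week and 2.54 and 0.757 on DMBA, and Snhg12 had 1.31 and 0.948 at 1 week and 4.0 and 1.12 on DMBA. By this ratio Snhg12 no longer separates the groups. Snhg3 separates them only as 0.725 in 1-week replicate 1 against 0.757 in on-DMBA replicate 2. These rest on 25 and 29 Snhg3 reads, so the gap is within counting error. The share of all genes that separate by this ratio was not computed.

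**Figure D3:**
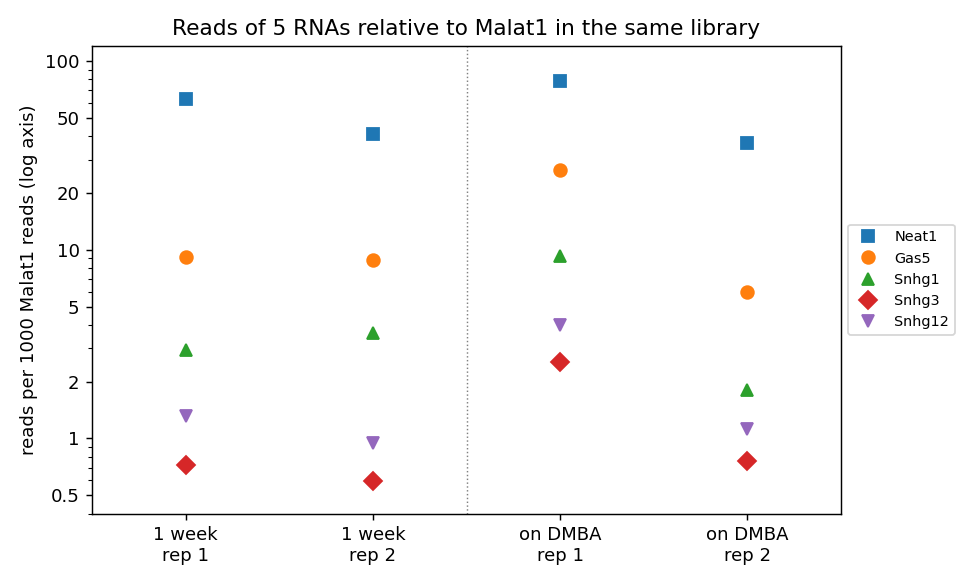
Reads of Neat1, Gas5, Snhg1, Snhg3 and Snhg12 per 1000 Malat1 reads of the same library (log axis), with the 1-week libraries left of the on-DMBA libraries. All 5 are highest in on-DMBA replicate 1, and Gas5 is at 9.17 and 8.87 at 1 week against 26.3 and 5.95 on DMBA.

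The likeness of the profiles was measured as the Euclidean distance between log2 levels over the 4 libraries, each gene centred on its own mean, as a description. Snhg3 and Snhg12 were the closest pair (0.18), followed by Gas5 and Snhg1 (0.31). The 6 pairs of hosts lay between 0.18 and 0.92. Malat1 lay 0.89 from Neat1 and 1.55 to 1.69 from the hosts, and Neat1 lay 0.93 to 1.11 from them. Snhg3 and Snhg12 lie near each other on chromosome 4. Of the genes whose lower coordinate falls between theirs, 4 are the snoRNA genes within Snhg12 itself. The others are Trnau1ap and Rcc1, and exons of Rcc1 overlap those of Snhg3. Malat1 and Neat1 are neighbours on chromosome 19. The single gene whose lower coordinate falls between theirs is Mascrna, a small RNA cut from the Malat1 transcript itself. Snhg1 is also on chromosome 19, and Gas5 is on chromosome 1.

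Among the 11787 other genes whose mean reached 5 scaled CPM, the 3 nearest to each member were found by the same distance. Malat1 was nearest to Dph3, Fyco1 and Pex19 (0.03 each), and Dph3 was at 29.4 and 39.7 scaled CPM at 1 week and 40.4 and 37.7 on DMBA. Neat1 was nearest to Thap4 (0.03), Nsl1 (0.05) and Prdm4 (0.06). Gas5 was nearest to 4930547N16Rik (0.06), Atad3a (0.08) and Ppil1 (0.08), and Atad3a was at 37.2 and 48.8 at 1 week and 153 and 32.3 on DMBA. Snhg1 was nearest to Tacc3 (0.05), Scrn2 (0.06) and Cdca2 (0.07), and Tacc3 was at 21.9 and 36.9 at 1 week and 90.4 and 17.2 on DMBA. Snhg3 was nearest to Txn2 (0.09), Hist1h3c (0.13) and Lancl1 (0.15). Snhg12 was nearest to Lancl1 (0.08), Ptplb (0.08) and Larp1 (0.09), and Larp1 was at 77.4 and 74.0 at 1 week and 279.5 and 79.9 on DMBA.

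Per kilobase, Malat1 exceeded every other member in all 4 libraries. Levels were divided by the summed exon length in GENCODE M21, since the annotation used for counting was not given in the sources used here. Malat1 was at 771 and 1034 scaled CPM per kb at 1 week and 1033 and 985 on DMBA. Neat1, divided by the length of its long isoform, was at 16.3 and 14.2 per kb at 1 week and 27.1 and 12.1 on DMBA. Gas5 was at 13.1 and 17.0 per kb at 1 week and 50.5 and 10.9 on DMBA. By these lengths the order of Neat1 and Gas5 changes between libraries, while before division Neat1 was above Gas5 in all 4. Snhg1 followed with 5.32 and 8.79 at 1 week and 22.6 and 4.17 on DMBA. Snhg3 was at 3.96 and 4.34 per kb at 1 week and 18.5 and 5.28 on DMBA, and Snhg12 was at 2.93 and 2.85 at 1 week and 12.0 and 3.21 on DMBA. Snhg1 was below Snhg3 in on-DMBA replicate 2 and above it in the other 3 libraries, and Snhg12 was the lowest of the 6 in all 4. These ranks rest on the lengths used, and before division Snhg3 was the lowest of the 6 in all 4.

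The snoRNAs inside the hosts could not be assessed as a set, since most had no row under the symbols used. Of 24 snoRNAs listed for the 4 hosts, 3 had a row in the table, Snord22 of Snhg1 and Snora16a and Snora44 of Snhg12. Snord22 had 5 and 4 reads at 1 week and 15 and 6 on DMBA. Snora16a had 2 and 2 reads at 1 week and 9 and 1 on DMBA, and Snora44 had 3 and 1 at 1 week and 0 and 3 on DMBA. Snord22 alone passed the filter, with a log2 difference of -0.70 (SE 0.72, limma adjusted p = 1.00), and at these counts no difference was detectable. In GENCODE M21 the exons of Snhg3 overlap those of Rcc1 on the same strand and of Gm17300 on the other, so reads of Snhg3 and Rcc1 could be shared and its value is uncertain. Rcc1, a chromatin-bound exchange factor, was at 23.3 and 30.7 scaled CPM at 1 week and 109 and 21.5 on DMBA. Exons of all 4 hosts overlap snoRNA genes, and Zbtb37 overlaps the introns of Gas5. Gm37376 overlaps Malat1 on the other strand. The kit keeps strand, but the strand setting of the counting was not given in the sources used here.

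Genes of the same pathways were described as lists, by counts and medians beside those of all genes tested. Over all 15419 genes the median log2 difference was -0.02, and 41.7% of genes were highest in on-DMBA replicate 1, against 5 of the 6 members. In every list named here 0 genes passed in limma with all 4 libraries. The median over all genes was 0.04 without on-DMBA replicate 1, where 2.35% were called higher and 0.999% lower. It was -0.06 without on-DMBA replicate 2, where 14.3% were called higher and 10% lower, and the counts given for the lists are to be read against these shares. Leaving out 1-week replicate 1 gave medians of -0.21 for protein-coding hosts, -0.24 for snoRNA-binding proteins, -0.31 for paraspeckle and -0.18 for speckle proteins. Leaving out 1-week replicate 2 gave -0.77, -0.87, -0.78 and -0.77 in the same order, with 0 called in both fits.

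Of the other noncoding snoRNA hosts, some shared the single high library and some did not. Of 17 listed, 8 were in the table and 7 were tested, with 4 of the 7 highest in on-DMBA replicate 1 and a median log2 difference of -0.16. Snhg5 was at 16.7 and 18.7 scaled CPM at 1 week and 58.7 and 15.6 on DMBA, again with a single high library. Snhg8 was at 13.6 and 19.8 at 1 week and 20.1 and 16.9 on DMBA, and Snhg6 was at 7.66 and 19.1 at 1 week and 14.8 and 12.6 on DMBA. For Snhg6 and Snhg8 the gap between the 1-week libraries was wider than that between the on-DMBA libraries. The median was -0.28 without on-DMBA replicate 2, with 3 of 7 called lower where 10% of all genes were, and -0.04 without on-DMBA replicate 1, with 0 called. It was -0.04 without 1-week replicate 1 and -0.78 without 1-week replicate 2, with 0 called.

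Protein-coding snoRNA hosts, most of them ribosomal protein or translation factor genes, had a median log2 difference of -0.57 over 23 genes tested, with 21 highest in on-DMBA replicate 1. Eef2, a translation elongation factor, was at 2040.0 and 2518 scaled CPM at 1 week and 4721 and 1706 on DMBA. Hspa8, a constitutive heat shock protein, was at 2659.9 and 4115 at 1 week and 3515 and 2257 on DMBA, and Rpl3 was at 631 and 1258 at 1 week and 2095 and 870.1 on DMBA. Reads of ribosomal protein genes may be split with their many processed pseudogenes. Leaving out on-DMBA replicate 1 gave a median of 0.29 with 0 called in either direction. Without on-DMBA replicate 2 it was -1.22 and 5 of 23 were called lower, where 10% of all genes were.

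The genes for snoRNA-binding proteins and their assembly factors had the same high library. All 15 listed genes were tested, with a median of -0.57 and 14 of 15 highest in on-DMBA replicate 1. Nop58 and Nop56, core proteins of the C/D box particles, were at 48.3 and 109 and at 50.8 and 78.4 scaled CPM at 1 week, and at 323 and 45.6 and at 250.2 and 35.2 on DMBA. Nhp2l1, which binds the snoRNA itself, was at 55.5 and 59.6 at 1 week and 117 and 42.5 on DMBA. The median was 0.36 without on-DMBA replicate 1, with 0 called, and -1.67 without on-DMBA replicate 2, with 8 of 15 called lower.

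Nonsense-mediated decay genes had a median of -0.31 over 14 genes tested of 16 listed, with 13 highest in on-DMBA replicate 1. Upf1, the central helicase of the pathway, was at 117 and 116 scaled CPM at 1 week and 173 and 89.9 on DMBA. The kinase Smg1 that phosphorylates it was at 164 and 259 at 1 week and 434 and 259 on DMBA, and Smg5 was at 86.0 and 93.8 at 1 week and 169 and 68.4 on DMBA. The median was 0.19 without on-DMBA replicate 1, with 0 called, and -0.95 without on-DMBA replicate 2, with 2 of 14 called lower, near the 10% of all genes.

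The protein partners of Neat1 and Malat1 had the same high library. Paraspeckle proteins had a median of -0.50 over 12 genes tested of 13 listed, and all 12 were highest in on-DMBA replicate 1. Sfpq and Nono, which bind Neat1, were at 148 and 193 and at 199 and 268 scaled CPM at 1 week, and at 347 and 172 and at 516 and 201 on DMBA. Hnrnpk was at 396 and 656 at 1 week and 1007 and 501 on DMBA. Nuclear speckle proteins had a median of -0.47 over 16 genes, all 16 highest in on-DMBA replicate 1. Srsf1, a splicing factor bound by Malat1, was at 259.6 and 479 at 1 week and 767 and 282 on DMBA, and Son, a scaffold of the speckles, was at 295 and 409.8 at 1 week and 594 and 377 on DMBA. Sf3b1 was at 304 and 527 at 1 week and 562 and 406 on DMBA. Without on-DMBA replicate 1 the median was 0.00 for paraspeckle and 0.06 for speckle proteins, with 0 called in either list. Without on-DMBA replicate 2 they were -1.09 and -1.13, with 3 of 12 and 3 of 16 called lower, where 10% of all genes were.

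The other long noncoding RNAs were split. Of 19 listed, 13 were in the table and 11 were tested, with a median log2 difference of 0.40 and 3 of 11 highest in on-DMBA replicate 1, Kcnq1ot1, Tug1 and Xist. In 6 of the 11 the groups did not overlap and the 1-week libraries were higher, where 14.0% of all genes were. These were Meg3, Rian, Mirg, H19, Airn and Miat. H19 separated only as 20.5 and 22.8 scaled CPM at 1 week against 17.6 and 17.8 on DMBA. Meg3 was at 33.6 and 20.7 at 1 week against 1.66 and 18.8 on DMBA, so its gap to on-DMBA replicate 2 was also narrow. Miat was at 10.8 and 3.99 at 1 week and 1.78 and 2.51 on DMBA. Airn had 14 and 26 reads at 1 week against 5 and 11 on DMBA. Mirg had 25 and 25 reads at 1 week against 2 and 3 on DMBA. In 1, Tug1, the 1-week libraries were lower without overlap, where 9.14% of all genes were. Rian, an imprinted noncoding RNA that hosts C/D snoRNAs, was at 53.1 and 67.3 scaled CPM at 1 week and 0.594 and 25.8 on DMBA, a log2 difference of 3.49 (SE 1.52, limma adjusted p = 1.00). Kcnq1ot1, an imprinted nuclear RNA, was at 148 and 137 at 1 week and 215 and 112 on DMBA. Tug1 was at 85.3 and 128 at 1 week and 185 and 128 on DMBA. Leaving out on-DMBA replicate 1 gave a median of 0.44 with 0 called, and without on-DMBA replicate 2 it was 0.80 with 2 of 11 called higher, where 14.3% of all genes were.

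**Figure D4:**
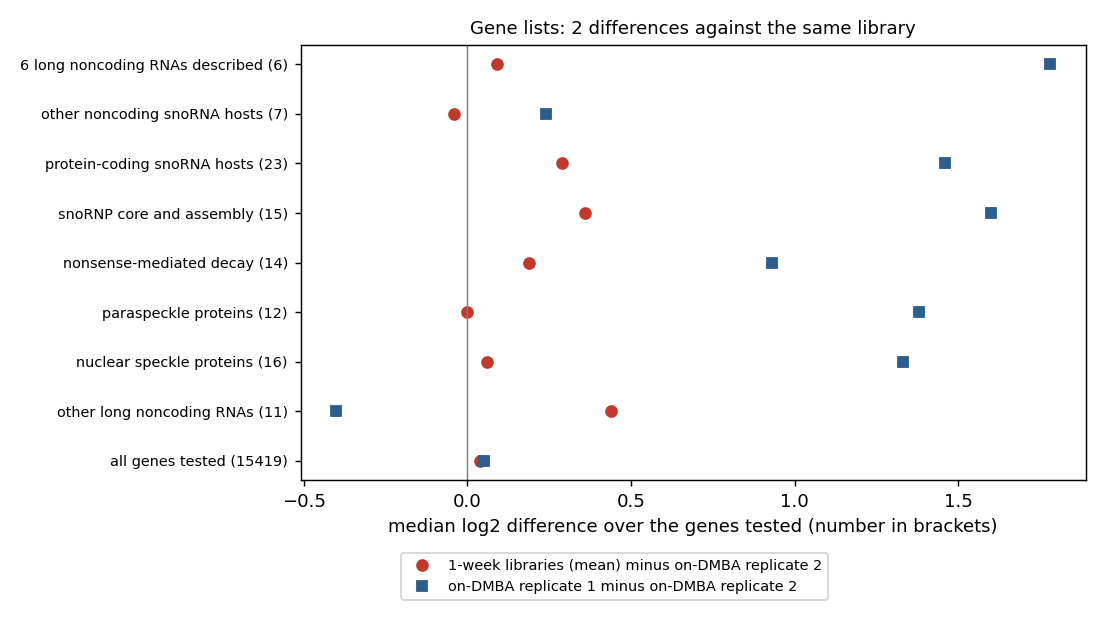
Median log2 difference over the genes tested of each list (number in brackets), for the mean of the 1-week libraries minus on-DMBA replicate 2 (red circles) and for on-DMBA replicate 1 minus on-DMBA replicate 2 (blue squares). Both differences share on-DMBA replicate 2, so they are not independent. The 6 RNAs lie at 0.09 and 1.78, and all genes tested at 0.04 and 0.05.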

How the data were processed

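RNA-seq libraries of sorted tumour cells from 4 mice were used, 2 collected 1 week after DMBA and 2 on DMBA, each column matched to its sample by name. The authors deposited 1 table that gives each gene a normalised signal in each library and is named CPM. Its columns total 867697 and 1092838 at 1 week and 1149287 and 1011509 on DMBA, so the signal is relative to a scaled library size. Per the submitters' processing notes, the mm9 build, HTSeq, TopHat2 2.1, edgeR 3.2.3 and CASAVA 1.8.2 belong to the upstream processing, with no stated role or order. In every library 100% of values were whole multiples of 1 step (tolerance 0.01 reads), which gave back whole reads. Each read was worth 0.1563 and 0.1426 scaled CPM at 1 week and 0.1187 and 0.1795 on DMBA, and 3 reads correspond to 0.356 to 0.538 scaled CPM.

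The 15419 genes that reached 1 scaled CPM in 2 or more libraries were tested with limma 3.58.1 in R 4.3.3 on log2(scaled CPM + 0.5), with a variance trend, two-sided, and Benjamini-Hochberg adjustment over all genes tested (threshold 0.05). Fold changes on this scale understate the change of low genes. DESeq2 1.42.0 and the quasi-likelihood test of edgeR 4.0.16, both on recovered reads, were alternatives, as were other pseudocounts, filters and scalings and the fits without each library. Counting intervals are exact Poisson intervals. As reads carry no molecular identifiers, they cover counting error only. The list medians without single libraries or under other scalings were added after the data were seen. The tests were run on simulated counts first, but the outcome is not given here and no power is claimed from it. Named genes were the 6 members, the 3 genes with the highest mean of each pathway list, hosted snoRNAs with at least 3 reads in a library, the 3 nearest profiles of each member, and Krt14, Cdh3, Col3a1, Ptprc and Pecam1. Fcer1g, Rcc1, Xist, Meg3, Mirg, H19, Airn, Miat and the overlapping genes of the annotation were named after their values were seen. The members, lists and rule were chosen with earlier results of these data known. Of the table's symbols, 99.3% matched RefSeq.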

Additional observations from a re-analysis of the deposited data

How the results depend on the processing

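None of the 14 alternatives applied to each member gave a call other than leaving out on-DMBA replicate 2, which moved Gas5, Snhg1, Snhg3 and Snhg12 past the threshold. Leaving out 1 library at a time, the log2 difference ran from -0.39 to 0.04 for Malat1 (above 0 without 1-week replicate 1), from -0.83 to 0.33 for Neat1, from -1.75 to 0.45 for Gas5, from -1.70 to 0.69 for Snhg1, from -2.03 to -0.31 for Snhg3 and from -1.98 to -0.14 for Snhg12. Neat1, Gas5 and Snhg1 were above 0 without on-DMBA replicate 1. Under the other 10 alternatives (pseudocount, filter, scaling, variance trend, replicate block, edgeR, DESeq2) the 6 differences stayed below 0 with no call. Rescaling to the same total gave -0.03 for Malat1 and -0.10 for Neat1. edgeR and DESeq2 gave -0.85 and -0.90 for Snhg1, and DESeq2 gave -0.99 for Gas5. The count of genes higher at 1 week ran from 0 to 2212 and of genes lower from 0 to 1549 when 1 library was left out, with 362 and 154 without on-DMBA replicate 1. DESeq2 called 16 and 3. With the replicate number as a block (paired analysis), limma called 285 higher and 3 lower, and 0 of the 6 members. The numbers mark different mice, and the deviations of same-numbered libraries correlated at 0.015 over 15419 genes, so they were not taken as pairs. Rescaling the libraries to the same total moved the median over all genes to 0.12. The cause of these shifts was not tested. Snhg3 and Snhg12, with 25 to 48 reads in the libraries other than on-DMBA replicate 1, are limited by counting error.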
